A study of Mus musculus with 26 samples.

Results

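Activins, inhibins and follistatins form a secreted signalling system, and 10 of its genes were examined in RNA-seq of embryonic mouse gonads: the subunit genes Inha, Inhba and Inhbb, the antagonist genes Fst and Fstl3, the receptor genes Acvr1b, Acvr2a and Acvr2b, the co-receptor gene Tgfbr3 and the pseudoreceptor gene Bambi. The genes were chosen by name, with earlier results of these data known. Their counts beside the share of all genes are therefore a description. Each was found by symbol and Ensembl identifier among the 57186 genes of the count table of WT and all deletions and the 31053 genes of the Meis1 count table, and all 10 passed the filter on low counts in both.

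A pair of β subunits, encoded by Inhba (βA) and Inhbb (βB), makes an activin, whereas a β subunit joined to the α subunit encoded by Inha makes an inhibin. Activin binds a type II receptor (Acvr2a or Acvr2b), which recruits and phosphorylates the type I receptor Acvr1b, and SMAD2 and SMAD3 carry the signal to the nucleus. Follistatin, the product of Fst, wraps around activin and hides its receptor-binding surfaces, while inhibin occupies type II receptors with the help of betaglycan, the product of Tgfbr3. In the fetal testis, activin A from Leydig cells is known to drive Sertoli cell proliferation, and Fst is known as a gene of the fetal ovary.

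The samples were 26 samples of XY gonads at E13.5 (counted in days of embryonic development), freed of mesonephros: WT (3), the Fgf9 genotypes Δ306 (3), Δ225 (6), Δ104 (4) and Δ93 (6), and Meis1 KO (4). Fgf9 encodes a growth factor of testis development and Meis1 a homeobox transcription factor. The labels name these genotypes without the deletions' boundaries, zygosity, strain, litters or any pooling of gonads, and they name no treatment. The 3 WT libraries serve every comparison with WT. Replicates are called biological in the labels of Δ225, Δ104, Δ93 and Meis1 KO only, so that p-values measure the spread between these samples, which may in part be technical.

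Libraries held 11.6 to 53.4 M counts in the table of all deletions and 35.5 to 51.7 M counts in the Meis1 table. Levels are CPM, the counts of a gene per M (mega) counts of its library, with library sizes scaled by the trimmed mean of M-values (TMM). Fgf9 was at 9.21 to 9.85 CPM in WT, 2.17 to 2.94 in Δ306, 2.30 to 4.75 in Δ93, 2.72 to 6.98 in Δ104 and 3.69 to 16.5 in Δ225. Meis1 was at 62.1 to 109 CPM in WT and 0.201 to 0.695 in Meis1 KO. Although all samples are labelled XY, 4 Y-linked genes (Ddx3y, Uty, Kdm5d and Eif2s3y) summed to under 1 CPM in 4 libraries: 0.141 in Δ306 replicate 3, 0.199 in Δ225 replicate 4, 0.0265 in Δ93 replicate 4 and 0.200 in Δ93 replicate 5. WT libraries were at 31.2 to 77.2 CPM and the other deletion libraries at 1.32 to 36.2. Low values were thus not confined to the 4 libraries under 1 CPM. In Δ104 replicates 1, 2 and 3, 2, 1 and 3 of the 4 Y-linked genes had 0 counts. In Δ93 against WT, all 4 Y-linked genes were called lower by edgeR. Xist, the X-inactivation transcript, was at 0.671, 0.177, 6.42 and 0.226 CPM in the 4 libraries under 1 CPM. It was at 0.0634 to 0.196 CPM in WT in the Meis1 table. Counts of members called are therefore given with and without these 4, named below as the libraries low in Y-linked transcripts. Δ225 replicate 1 was the shallowest library, with 11.6 M counts, of which 11.6% were mitochondrial. That share, a sign of RNA quality, was 2.23% to 5.47% in the other deletion libraries and 0.831% to 1.79% in the WT libraries of the same table, so that every deletion library was above every WT library. Its part in the comparisons with WT was not tested. In the same table, WT replicate 1 was low in germ-cell marker transcripts (Ddx4, Dazl, Pou5f1, Dppa3, Dnd1 and Mael). They summed to 19.2 CPM there, against 515 and 759 in the other WT libraries. The part of this library's makeup in the comparisons with WT was not tested either.

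The comparison of the 10 genes between genotypes asks which arms of the activin system move with the Fgf9 deletions and with loss of Meis1. In Δ306 against WT, Fst rose and Inha, Inhba and Tgfbr3 fell, so that 4 of 10 genes (1 higher, 3 lower) were called at an adjusted p under 0.05 (edgeR quasi-likelihood F-test). Of all genes tested, 6.43% were called, 2.96% higher and 3.46% lower. Without Δ306 replicate 3 and the other libraries low in Y-linked transcripts, none of the 10 was called, 6 had an unadjusted p under 0.05, and 102 genes were called in all. In Δ93 against WT, Fst rose and Inha, Inhba, Inhbb and Tgfbr3 fell, 5 of 10 genes (1 higher, 4 lower), against 14.1% of all genes, 7.23% higher and 6.84% lower. Without the libraries low in Y-linked transcripts, 3 of these 5 calls remained (Fst, Inhba and Tgfbr3). Groups of libraries did not overlap for 8 of the 10 genes in Δ306 against WT and 8 in Δ93 against WT, where this held for 37.6% and 24.7% of all genes.

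No gene of the 10 was called in Δ225 or Δ104 against WT by the same test. For Δ225 against WT, edgeR called 0 of 10 genes (0.209% of all genes called), 1 had an unadjusted p under 0.05, and DESeq2 also called 0. For Δ104 against WT, edgeR called 0 of 10 (0.061% of all genes), 3 had an unadjusted p under 0.05 and DESeq2 called 1, Fst. In Meis1 KO against WT, 0 of 10 were called (1.8% of all genes) and 4 had an unadjusted p under 0.05. DESeq2 called 1 there, Tgfbr3. Over all genes DESeq2 called 781 in Δ225, 591 in Δ104 and 1439 in Meis1 KO against WT. Groups did not overlap for 2 of the 10 genes in Δ225 against WT (10.1% of all genes), 2 in Δ104 against WT (18.1%) and 2 in Meis1 KO against WT (19.7%). The median log2 fold change of the 10 genes was -0.36 in Δ306, -0.26 in Δ93, -0.04 in Δ225 and -0.09 in Δ104 against WT, where the medians of all genes were 0.08, 0.06, 0.04 and 0.06. In Meis1 KO the medians were 0.23 for the 10 genes and 0.00 for all genes.

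**Figure D1:**
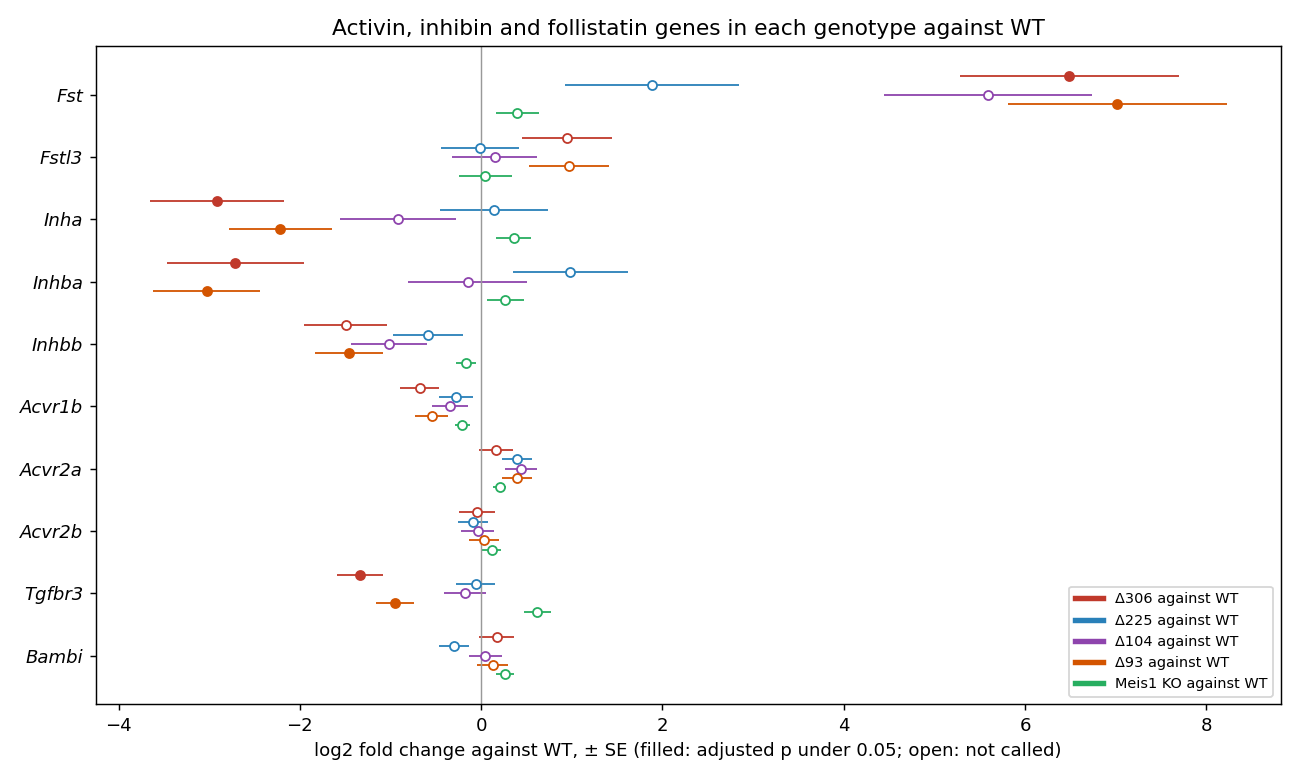
Log2 fold change (x axis) of each of the 10 genes (rows) in each genotype against WT, with its standard error (SE); colours mark genotypes and filled points an adjusted p under 0.05. Fst lies far to the right in Δ306, Δ93 and Δ104, Inha and Inhba lie to the left in Δ306 and Δ93, and Acvr2b lies between -0.09 and 0.11 throughout.

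The α subunit gene Inha (chromosome 1, 75507077 to 75510366, plus strand, GRCm38) was among the higher members in WT. Its level per kilobase of exon was 99.9 ± 24.9 CPM per kb in WT (SD, n = 3), against 60.5 ± 7.69 for Inhbb and 7.38 ± 0.611 for Inhba. The 3 WT libraries had 189, 119 and 134 CPM of Inha, and the 3 Δ306 libraries 19.8, 19.3 and 19.3. All Δ306 libraries lay far below the lowest WT library and close to one another. Inha fell in Δ306 by 2.92 on the log2 scale (SE 0.74, adjusted p = 0.0240), 7.56-fold. In bulk samples such as these, fewer cells that express a gene and less RNA per cell cannot be told apart. In Δ93, Inha had a lowest level of 15.6, a median of 33.1 and a highest of 42.4 CPM, again with no overlap with WT. The fall in Δ93 was 4.64-fold (log2 fold change -2.22, SE 0.57, adjusted p = 0.0135). The Inha call in Δ306 held under 9 of 15 alternatives (adjusted p 6e-04 to 0.134) and was lost without any single Δ306 library or without WT replicate 1 (adjusted p 0.0579 to 0.106). In Δ93 it held under 14 of 17 alternatives and ended without WT replicate 1 (adjusted p = 0.0697) or without the libraries low in Y-linked transcripts (0.0538).

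Inha varied widely within the remaining deletions. In Δ225, 3 libraries had 41.5, 117 and 30.4 CPM and the other 3 had 255, 261 and 272, so that the group spanned values below and above all WT libraries. The lower 3 were also the shallower ones, at 11.6 to 23.3 M counts against 41.3 to 46.8 M counts, and had summed Sertoli marker levels of 562 to 891 CPM against 1769 to 2216. The part of depth or of cell makeup in the level of Inha was not tested. The 4 Δ104 libraries had 17.5, 38.8, 108 and 148 CPM, from the Δ306 range into the WT range. Group means thus ordered as Δ306 (19.5), Δ93 (31.7), Δ104 (78.1), WT (147) and Δ225 (163 CPM). No neighbours in that order were called different, with adjusted p from 0.274 to 0.917.

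Inhba and Inhbb, the β subunit genes, are shown with the 250 bases before their RefSeq start sites because their levels fell together in Δ93 while their upstream sequences are unlike in base composition. Both are read 5′ to 3′ on the gene's own strand from the RefSeq table for GRCm38.p6, with CG dinucleotides in capitals. Inhba is at chr13:16011601-16011850 on the plus strand and Inhbb at chr1:119422249-119422498 on the minus strand.
Inhba: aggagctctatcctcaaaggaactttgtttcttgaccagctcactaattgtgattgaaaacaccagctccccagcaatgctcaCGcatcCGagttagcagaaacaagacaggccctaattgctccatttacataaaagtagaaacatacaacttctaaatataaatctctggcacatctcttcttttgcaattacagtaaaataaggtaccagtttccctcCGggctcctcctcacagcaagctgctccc
Inhbb: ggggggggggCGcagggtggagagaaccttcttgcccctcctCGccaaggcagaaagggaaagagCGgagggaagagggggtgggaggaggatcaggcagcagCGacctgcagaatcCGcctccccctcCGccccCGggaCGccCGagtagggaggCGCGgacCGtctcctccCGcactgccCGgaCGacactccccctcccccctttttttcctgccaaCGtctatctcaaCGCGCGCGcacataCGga
The Inhba window had a GC content of 43.2% and 3 CG dinucleotides, and the Inhbb window 68.0% and 21, where the medians over all 32851 windows of this length were 52.4% and 6. Both strands were searched for 6 short motifs. The NR5A1 half-site, AAGGTCA, was in 4.08% of all windows. The cyclic AMP response element, TGACGTCA, was in 1.55%. A motif of the factors named GATA, searched as AGATAA, was in 9.99%. The SOX motif, searched as ACAAAG, was in 16.5%. The forkhead motif, searched as TAAACA, was in 12%. The box bound by the general initiation machinery, searched as TATAAA, was in 12.4%. In the Inhba window the SOX letters began 228 bases and the initiation box 91 bases before the start. None of the 6 was in the Inhbb window. A match describes the letters only. RefSeq windows were matched for 7 of the 10 genes.

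Inhba (chromosome 13, 16011851 to 16031621, plus strand) encodes the βA subunit of activin A. Its 3 WT libraries were tightly grouped at 51.4, 43.8 and 46.3 CPM, and the Δ306 libraries had 6.89, 8.95 and 5.69. Every Δ306 library was below every WT library. Inhba fell 6.56-fold in Δ306 (log2 fold change -2.71, SE 0.75, adjusted p = 0.0359). This call held under 6 of 15 alternatives (adjusted p 0.000746 to 0.184) and was lost without any single library of either group (adjusted p 0.0697 to 0.149) or without the libraries low in Y-linked transcripts (0.184). In Δ93 the lowest, median and highest values were 2.76, 5.15 and 11.5 CPM, none of them near the WT range. The fall there was 8.17-fold (log2 fold change -3.03, SE 0.59, adjusted p = 0.00271) and was called under all 17 alternatives.

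In Δ225, Inhba was not lower than in WT. The 6 libraries had a lowest value of 41.4, a median of 79.7 and a highest of 185 CPM, and 5 of 6 lay above the highest WT library. The difference did not pass the test (log2 fold change 0.98, SE 0.63, adjusted p = 0.430). The highest value came from replicate 1, the shallowest library. In Δ104 the libraries had 1.97, 30.6, 67.5 and 70.4 CPM, below the WT range in replicates 1 and 2 and above it in replicates 3 and 4. By means the order was Δ93 (5.78), Δ306 (7.18), Δ104 (42.6), WT (47.1) and Δ225 (93.3 CPM), and no neighbours were called different (adjusted p 0.169 to 0.925).

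Inhbb (chromosome 1, 119415465 to 119422248, minus strand) encodes the βB subunit, and by level per kb it was the more abundant β subunit gene in WT. Relative to Inhbb per kb, Inhba was at 0.102 to 0.139 in WT, 0.0412 to 0.0616 in Δ306, 0.0222 to 0.0727 in Δ93 and 0.185 to 1.34 in Δ225. The WT libraries had 263, 287 and 222 CPM of Inhbb and the Δ306 libraries 111, 101 and 61.5. These groups did not overlap, yet the difference missed the threshold (log2 fold change -1.50, SE 0.46, adjusted p = 0.0554). Inhbb was called lower in Δ306 under 4 of 15 alternatives (adjusted p 0.00708 to 0.221), which were DESeq2, another scaling (RLE), the 2 groups alone and the separate table of these groups. In Δ93 the lowest, median and highest values were 57.3, 77.3 and 147 CPM, all below WT. Inhbb fell 2.75-fold in Δ93 (log2 fold change -1.46, SE 0.38, adjusted p = 0.0137). The call held under 13 of 17 alternatives (adjusted p 0.00297 to 0.0605) and was lost without WT replicate 1 (0.0536), WT replicate 2 (0.06) or the libraries low in Y-linked transcripts.

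The 4 Δ104 libraries had 49.8, 99.1, 182 and 179 CPM of Inhbb, all below WT, and the difference did not pass the test (log2 fold change -1.02, SE 0.42, adjusted p = 0.265). The Δ225 libraries split as they did for Inha, at 92.0, 119 and 106 CPM in the 3 shallower libraries and 260.0, 237 and 213 in the others. By means the order was Δ306 (91.3), Δ93 (93.7), Δ104 (127), Δ225 (171) and WT (258 CPM), with no neighbours called different (adjusted p 0.434 to 0.991).

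**Figure D2:**
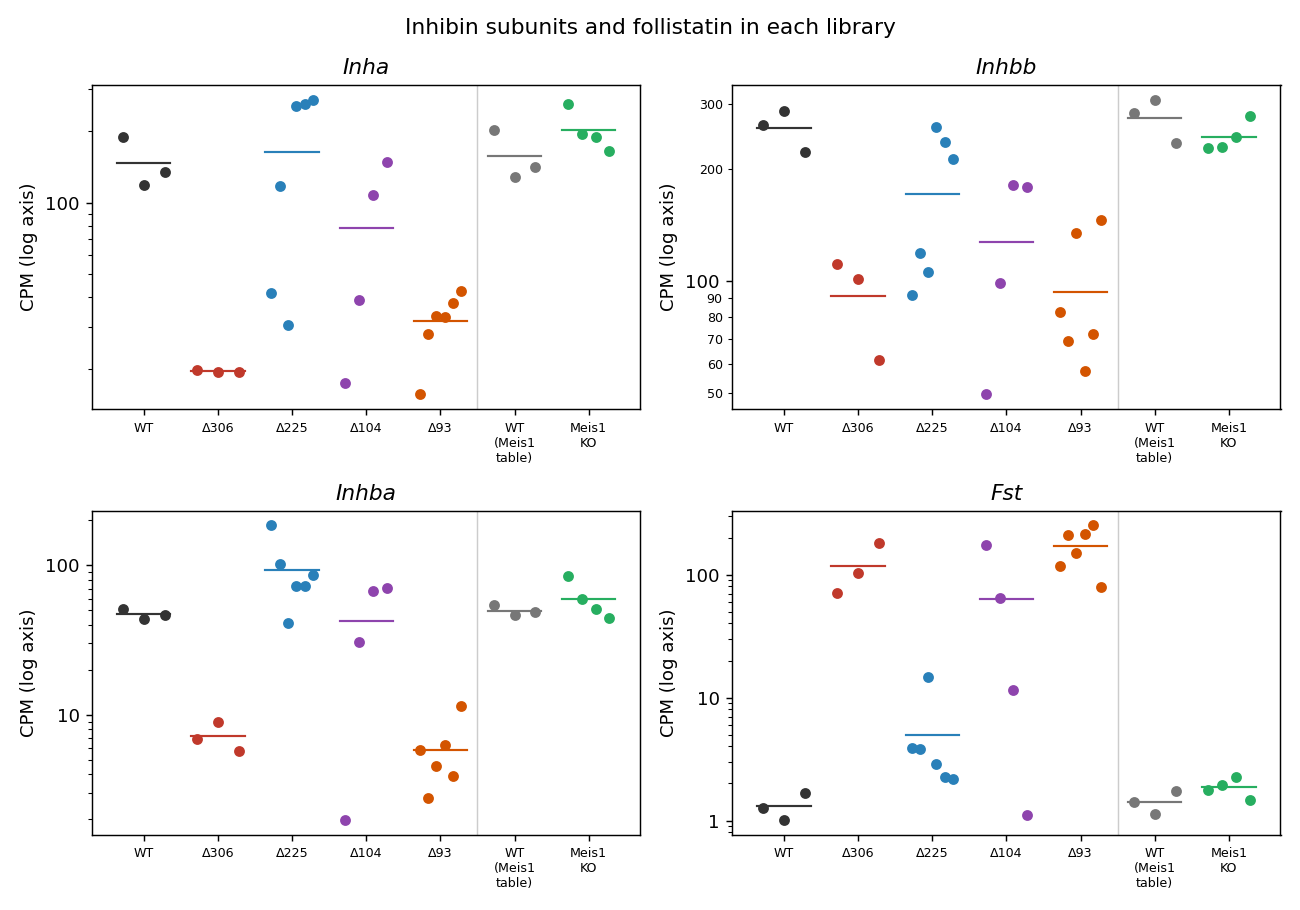
CPM of Inha, Inhbb, Inhba and Fst (log axes) in every library, grouped by genotype (x axis), with the 2 tables parted by a grey line; dots are libraries and bars group means. Fst is at 1.01 to 1.69 CPM in WT and at 71.2 to 251 in Δ306 and Δ93, where Inha and Inhba sit far below their WT values.

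Fst (chromosome 13, 114452290 to 114458951, minus strand), the follistatin gene, had the widest range of the 10 genes as a ratio of its highest to its lowest library. It was low in WT, at 1.26, 1.01 and 1.69 CPM, and was at 71.2, 102 and 179.7 CPM in the Δ306 libraries. The lowest Δ306 library was far above the highest WT library. Fst rose 89.6-fold in Δ306 (log2 fold change 6.49, SE 1.21, adjusted p = 0.00588). Without the libraries low in Y-linked transcripts the log2 fold change was 6.00 (adjusted p = 0.0529, with a range over the alternatives of 7.24e-08 to 0.0529), and the other 14 of 15 alternatives kept the call. In Δ93 the lowest, median and highest values were 79.5, 180.4 and 251 CPM, a range that overlapped that of Δ306. The rise over WT was 129.6-fold (log2 fold change 7.02, SE 1.205, adjusted p = 0.00121) and was called under all 17 alternatives.

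The Δ104 libraries differed most among themselves in Fst, at 175, 64.8, 11.5 and 1.12 CPM. Replicate 4 was within the WT range and replicate 1 within that of Δ306 and Δ93. The mean difference from WT was large but uncertain (log2 fold change 5.59, SE 1.15, adjusted p = 0.0621). It was called under 5 of 15 alternatives (adjusted p 8.07e-06 to 0.296), among them DESeq2 (8.07e-06) and the fits without Δ104 replicate 4 (0.00159) or replicate 3 (0.0350). In Δ225, Fst had a lowest value of 2.17, a median of 3.35 and a highest of 14.6 CPM. All 6 libraries were above the highest WT library, but the difference did not pass the test (log2 fold change 1.89, SE 0.96, adjusted p = 0.332). The highest library was replicate 3, and without it the value was 1.17 (adjusted p = 0.516, with a range over the alternatives of 0.150 to 0.578). The order by means was WT (1.32), Δ225 (4.94), Δ104 (63.0), Δ306 (118) and Δ93 (170.3 CPM), and the step from Δ225 to Δ104 was the only one between neighbours that was called.

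Within Δ104, the libraries with more Fst had less Inha. Replicates 1, 2, 3 and 4 had Fst at 175, 64.8, 11.5 and 1.12 CPM and Inha at 17.5, 38.8, 108 and 148. Summed Sertoli markers were 29.0, 406, 1027 and 1996 CPM in the same libraries and summed pre-granulosa markers 563, 296, 130.2 and 66.3. Fgf9 itself was at 2.72, 5.16, 6.98 and 4.52 CPM, highest in replicate 3 and not in replicate 4.

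Fst was also set against the β subunit genes whose products its protein binds. The ratio of Fst to the sum of Inhba and Inhbb, each per kb of exon, was 0.00391, 0.00296 and 0.00618 in WT and 0.570, 0.885 and 2.55 in Δ306. In Δ93 it ran from 0.478 to 3.22 with a median of 2.004, and in Δ225 from 0.00739 to 0.101 with a median of 0.0128. The 4 Δ104 libraries had ratios of 3.17, 0.503, 0.0471 and 0.00459, which covers the span from Δ93 to WT. The ratio of Inha to the same sum was 1.83, 1.09 and 1.53 in WT and 0.494, 0.520 and 0.852 in Δ306, so that no Δ306 library reached the WT range. In Δ93 that ratio ran from 0.521 to 1.55 and overlapped WT. These ratios describe transcripts and are not amounts of protein dimers.

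**Figure D3:**
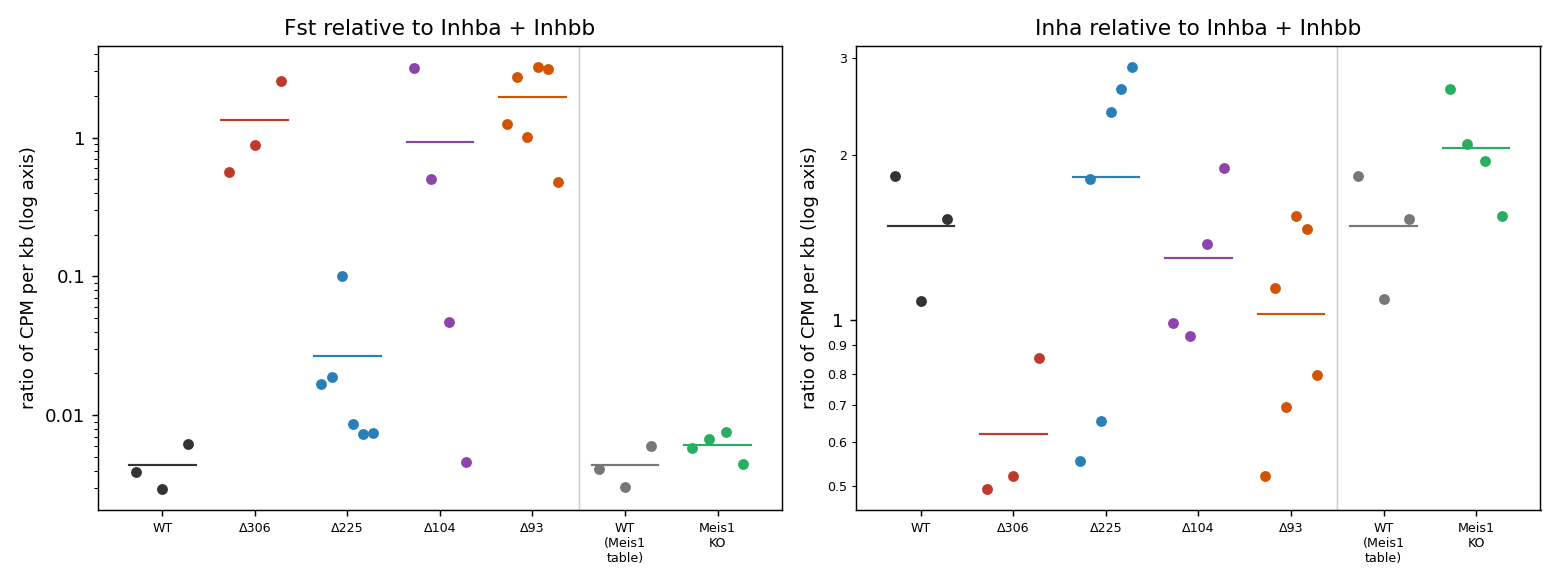
Ratio of Fst (left) and of Inha (right) to the sum of Inhba and Inhbb, each as CPM per kb of exon (log axes), per library and grouped by genotype; bars are group means. The Fst ratio is at 0.00296 to 0.00618 in WT and at 0.478 to 3.22 in Δ306 and Δ93, and the Δ104 libraries span both.

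Fstl3 encodes a second activin-binding protein related to follistatin. It was low everywhere, at 1.21, 1.42 and 1.53 CPM in WT and 3.16, 2.26 and 2.61 in Δ306. In Δ93 the lowest, median and highest values were 2.26, 2.73 and 3.30 CPM. Neither deletion overlapped WT, and neither difference passed the test (log2 fold change 0.95, SE 0.50, adjusted p = 0.275 in Δ306, and 0.97, SE 0.45, adjusted p = 0.155 in Δ93). In Δ93, DESeq2 (0.0187) and the fit of the 2 groups alone (0.0152) called Fstl3 higher, 2 of 17 alternatives with adjusted p up to 0.350. Δ225 and Δ104 overlapped WT, at 0.0976 to 1.88 and 1.05 to 2.42 CPM. The lowest of these values rests on a single read in Δ225 replicate 1.

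The type I receptor gene Acvr1b (also known as ALK4) was at 65.2, 57.1 and 59.95 CPM in WT and 36.9, 37.4 and 39.5 in Δ306. All Δ306 libraries were lower than all WT libraries, and the difference missed the threshold (log2 fold change -0.68, SE 0.22, adjusted p = 0.0636). In Δ93 the lowest, median and highest values were 31.4, 43.0 and 48.3 CPM, also below WT (-0.54 on the log2 scale, SE 0.18, adjusted p = 0.0507). Acvr1b was called lower under 5 of 17 alternatives in Δ93 and 4 of 15 in Δ306. The Δ225 and Δ104 libraries, at 30.2 to 62.3 and 40.2 to 57.5 CPM, overlapped WT.

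Neither type II receptor gene was called in any deletion against WT by edgeR without a replicate block. Acvr2a was at 29.5, 29.3 and 29.2 CPM in WT and 35.1, 31.8 and 31.6 in Δ306. All Δ306 libraries were slightly above the narrow WT range, as were all libraries of Δ225 (31.6 to 48.9), Δ104 (29.9 to 44.3) and Δ93 (29.6 to 45.7 CPM). None of these 4 differences passed the test: they ran from 0.16 to 0.44 on the log2 scale, at adjusted p 0.116 to 0.664. Acvr2b was at 23.8, 27.5 and 24.1 CPM in WT and at 17.4 to 30.1 over the deletion libraries. Its log2 fold changes against WT were -0.05 in Δ306, -0.09 in Δ225, -0.04 in Δ104 and 0.03 in Δ93, each smaller than its SE (0.17 to 0.20).

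Tgfbr3 encodes betaglycan, a membrane proteoglycan that presents TGF-β2 and inhibin to their receptors. It was at 92.2, 77.0 and 57.8 CPM in WT and 34.1, 26.9 and 28.6 in Δ306. No Δ306 library reached the lowest WT library. Tgfbr3 fell 2.53-fold in Δ306 (log2 fold change -1.34, SE 0.26, adjusted p = 0.00651). Without the libraries low in Y-linked transcripts the value was -1.35 (adjusted p = 0.0637, with a range over the alternatives of 7.19e-05 to 0.0637). In Δ93 the lowest, median and highest values were 29.1, 39.8 and 47.7 CPM, below WT throughout. The fall was 1.93-fold (log2 fold change -0.95, SE 0.21, adjusted p = 0.00573), called under all 17 alternatives. Δ225 at 63.1 to 91.3 CPM and Δ104 at 41.5 to 104.2 overlapped WT.

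Bambi encodes a pseudoreceptor that resembles type I receptors but lacks the kinase domain and dampens signalling. It was at 63.5, 52.5 and 51.0 CPM in WT and 59.7, 65.5 and 62.9 in Δ306, overlapping groups. Δ93 had a lowest value of 52.7, a median of 60.8 and a highest of 68.6 CPM, and Δ225 had 31.9, 43.8 and 63.0. Neither differed from WT by the test (log2 fold change 0.13, adjusted p = 0.679, and -0.30, adjusted p = 0.371).

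**Figure D4:**
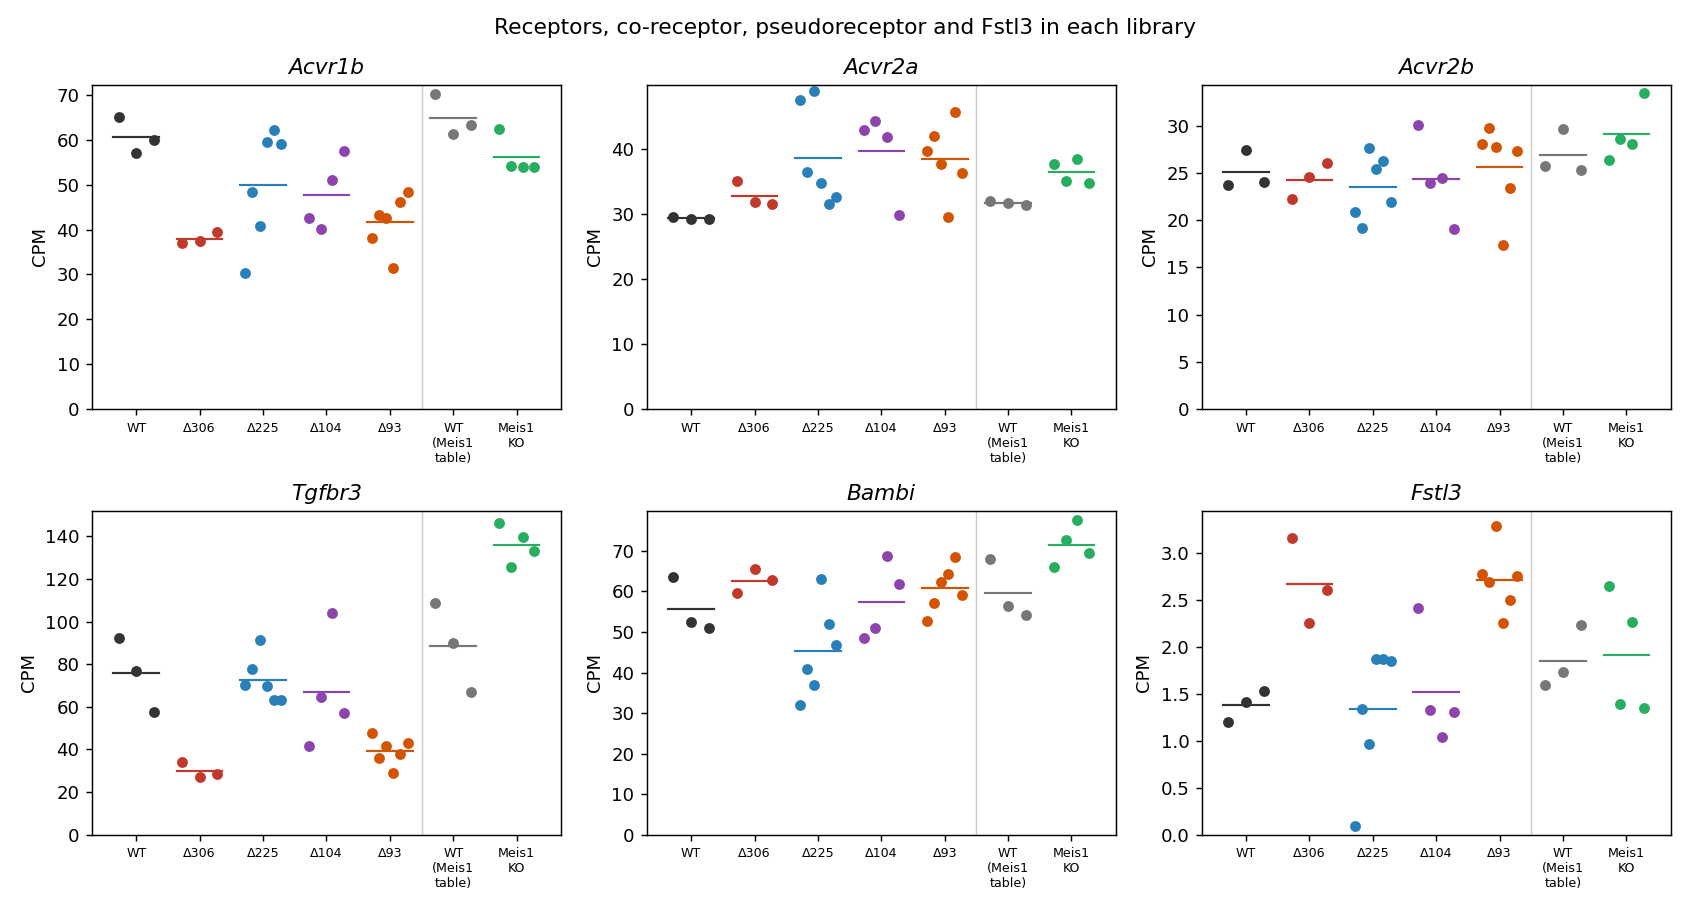
CPM of Acvr1b, Acvr2a, Acvr2b, Tgfbr3, Bambi and Fstl3 in every library (dots), grouped by genotype with group means (bars), on linear axes from 0. Tgfbr3 is at 26.9 to 34.1 CPM in Δ306 and 57.8 to 92.2 in WT, while Acvr2b lies at 17.4 to 30.1 CPM in all deletions.

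The deletions were next compared with one another, in the same fit, to which the WT libraries contribute scaling and spread but no level. Against Δ306, Inha, Inhba and Tgfbr3 were higher and Fst was lower in Δ225, 4 of 10 genes, where 13.2% of all genes were called (6.47% higher, 6.74% lower). Inha was 8.37-fold higher (log2 fold change 3.06, SE 0.70, adjusted p = 0.00753) and Inhba 12.96-fold (3.70, SE 0.75, adjusted p = 0.00339). Tgfbr3 was 2.43-fold higher (1.28, SE 0.23, adjusted p = 0.00155) and Fst 24.2-fold lower (-4.60, SE 0.83, adjusted p = 0.00154). The groups did not overlap for any of these 4 genes or for Fstl3, 5 of the 10, where this held for 20.2% of all genes. Without the libraries low in Y-linked transcripts, Fst and Tgfbr3 were still called, and Inha (2.90, adjusted p = 0.0944) and Inhba (3.64, adjusted p = 0.0609) were not. Inha was also lost without Δ306 replicate 3 alone (adjusted p = 0.0510), which is 1 of those libraries.

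Against Δ93 the same 4 genes and Bambi were called in Δ225, 5 of 10 genes (3 higher, 2 lower), where 20.8% of all genes were called (9.96% higher, 10.8% lower). Inhba was 16.1-fold higher (log2 fold change 4.01, SE 0.56, adjusted p = 8.44e-05) and Fst 35.0-fold lower (-5.13, SE 0.80, adjusted p = 0.000177). Inha was 5.14-fold higher (2.36, SE 0.51, adjusted p = 0.00258), although Δ225 replicates 1 and 3, at 41.5 and 30.4 CPM, were within the Δ93 range. Tgfbr3 was 1.85-fold higher (0.89, SE 0.18, adjusted p = 0.00150). These 4 calls held under all 20 alternatives, whereas that of Bambi, 1.34-fold lower (-0.42, SE 0.14, adjusted p = 0.0347), held under 12 of 20. Leaving out Δ225 replicate 1, Δ225 replicate 3, Δ93 replicate 2 or Δ93 replicate 5 ended the Bambi call (adjusted p 0.0537 to 0.0979). It was also lost without the libraries low in Y-linked transcripts (0.0679), where 4 of the 10 genes were called (3 higher, 1 lower). Groups did not overlap for 4 of the 10 genes, against 11% of all genes.

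Against Δ104, Fst was lower in Δ225, 1 of 10 genes, where 0.645% of all genes were called. Groups of libraries overlapped for all 10 genes (1.67% of all genes did not overlap), and the difference of -3.70 on the log2 scale (SE 0.78, adjusted p = 0.0267) held under 7 of 18 alternatives (adjusted p 0.000641 to 0.550). It was lost without Δ104 replicate 1 (-2.41, adjusted p = 0.427) or replicate 2, and without Δ225 replicate 1, 2, 4, 5 or 6 (adjusted p 0.0590 to 0.0795).

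Between Δ104 and Δ306, edgeR called 0 of the 10 genes (0.0654% of all genes), 3 had an unadjusted p under 0.05 and DESeq2 called 2. Over all genes DESeq2 called 389. Groups did not overlap for 2 of the 10 (11.2% of all genes). Tgfbr3 came closest, with all Δ104 libraries above all Δ306 libraries (log2 fold change 1.16, SE 0.24, adjusted p = 0.0782). Between Δ93 and Δ104, edgeR called 0 (0.0523% of all genes), 3 had an unadjusted p under 0.05 and DESeq2 called 2. DESeq2 called 546 over all genes. Groups overlapped for all 10 (1.89% of all genes did not). Inhba was closest there (-2.88, SE 0.57, adjusted p = 0.0704). Between Δ93 and Δ306, edgeR and DESeq2 each called 0 (0.0785% of all genes by edgeR), and 0 had an unadjusted p under 0.05 by either. Groups overlapped for all 10 (6.38% of all genes did not). The largest difference among the 10 was that of Inha, at 0.70 on the log2 scale (SE 0.62, adjusted p = 0.793).

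In Meis1 KO gonads no gene of the 10 passed the test. Inha was at 202, 128 and 142 CPM in WT and 259.7, 195, 188 and 165 in Meis1 KO, overlapping groups (log2 fold change 0.36, SE 0.19, adjusted p = 0.361). Fst stayed low, at 1.41, 1.12 and 1.74 CPM in WT and 1.78, 1.94, 2.26 and 1.48 in Meis1 KO (0.40, SE 0.24, adjusted p = 0.407). Inhba overlapped WT, at 44.2 to 85.2 against 46.6 to 54.1 CPM, and so did Inhbb, at 228 to 278 against 235 to 308.

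Tgfbr3 was the gene nearest to a call in Meis1 KO. It was at 109, 90.0 and 67.0 CPM in WT and 146, 126, 139 and 133 in Meis1 KO, with no overlap. The log2 fold change was 0.62 (SE 0.15, adjusted p = 0.0780), and DESeq2 (adjusted p = 0.00412) and the fit without WT replicate 1 (adjusted p = 0.00956) called it, within a range over the alternatives of 0.00412 to 0.208. WT replicate 1 also had the fewest germ-cell marker transcripts, with a sum of 22.6 CPM against 591 and 869 in the other WT libraries. Without it, 3 of the 10 genes were called: Inha (0.58, adjusted p = 0.0433), Bambi (0.37, adjusted p = 0.0214) and Tgfbr3. Over all genes, leaving out 1 library in turn gave 15 to 2204 calls in this comparison, against 303 in the full fit. Acvr2a was also higher without overlap, at 34.8 to 38.5 against 31.4 to 32.0 CPM (0.21, SE 0.07, adjusted p = 0.175). Sertoli markers summed to 1509.5 to 1986 CPM in Meis1 KO and 2112 to 2601 in WT. Of the 7 genes, 6 were lower without overlap, where 19.7% of all genes did not overlap in either direction. By edgeR 0 of the 7 were called, 5 had an unadjusted p under 0.05, and DESeq2 called 4. Y-linked transcripts were at 3.67 to 15.8 against 33.3 to 81.6 CPM and summed haemoglobin transcripts at 2839.7 to 3999 against 4188 to 5406, also without overlap. Pre-granulosa markers summed to 97.9 to 129 CPM in Meis1 KO and 68.7 to 120 in WT. Of these 6 genes, edgeR called 1 higher and DESeq2 2. Fetal Leydig markers summed to 1445 to 2299 against 987 to 1709 CPM, with 0 of 6 called by edgeR and 2 called higher by DESeq2. The part of these cell types in the Meis1 KO values was not tested.

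Markers of some of the cells that could be in the gonad also differed between genotypes. Sertoli markers (Sox9, Amh, Dhh, Ptgds, Cst9, Aard and Sox8) summed to 1941 to 2395 CPM in WT, 73.1 to 518 in Δ306, 42.7 to 860.5 in Δ93, 29.0 to 1996 in Δ104 and 562 to 2216 in Δ225. Pre-granulosa markers (Foxl2, Wnt4, Rspo1, Irx3, Irx5 and Bmp2) summed to 64.1 to 111 CPM in WT, 316 to 576 in Δ306, 359 to 861 in Δ93, 66.3 to 563 in Δ104 and 61.5 to 106 in Δ225. Of the 6 pre-granulosa markers, 5 were called higher in Δ306 and 6 in Δ93, and of the 7 Sertoli markers 0 were called lower in Δ306 and 2 in Δ93 by edgeR. In Δ306, 2 of the 7 had an unadjusted p under 0.05, DESeq2 called 1, and no library overlapped WT in any of the 7. Fetal Leydig markers (Cyp11a1, Cyp17a1, Hsd3b1, Star, Insl3 and Cyp11b1) summed to 902 to 1556 CPM in WT, 39.8 to 91.3 in Δ306, 50.1 to 314 in Δ93, 37.8 to 1630.4 in Δ104 and 453 to 3058 in Δ225. Of the 6, 3 were called lower in Δ306 and 5 in Δ93. Meiotic germ-cell markers (Stra8, Sycp3 and Rec8) summed to 3.17 to 6.88 CPM in WT, 83.8 to 221 in Δ306 and 127 to 592 in Δ93, with 2 of 3 called higher in Δ306 and 3 in Δ93. Endothelial markers (Pecam1, Cdh5, Kdr and Tek) summed to 381 to 514 CPM in WT, 248 to 343 in Δ306 and 248 to 369 in Δ93, with 1 of 4 called lower in Δ306 and 2 in Δ93. Without the libraries low in Y-linked transcripts, edgeR called 1 pre-granulosa marker in Δ306 against WT. It then called 0 Sertoli, 0 fetal Leydig, 0 meiotic and 0 endothelial markers there. In Δ93 against WT these lists had 5, 1, 2, 3 and 2 calls in the same order. Summed germ-cell, mesonephric and haemoglobin transcripts of Δ306 and Δ93 overlapped those of WT. Of the 4 mesonephric markers, edgeR called 1 higher in Δ93 against WT and 0 in Δ306. Defining markers at 0 counts in some libraries were Cyp11b1 in Δ306 and Δ93 and Irx5 in Δ225. In WT replicate 1 and in Δ225 replicate 3, 1 of the 3 meiotic germ-cell markers also had 0 counts. The part of these cell types in the levels of Inha, Inhba, Inhbb, Fst and Tgfbr3 was not tested.

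The genes whose log2 CPM was most like that of each member over the 22 libraries of the table of all deletions were taken from 16153 genes by Pearson correlation, as a description over libraries that share genotype, depth and cell makeup. For Inha they were Acsbg1 (r = 0.98), Aldh1l1 (0.97) and Rims4 (0.97), and for Inhbb Akr1b8 (0.98), Rnf181 (0.97) and Trim47 (0.97). For Inhba they were Stc1 (0.98), Bdnf (0.98) and Enpp6 (0.98). For Fst they were Gxylt2 (0.98), Stum (0.98) and Arhgap29 (0.98). No gene was shared between these 4 sets.

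Of 42 other genes listed around the SMAD2/3 branch, 38 passed the filter in the table of all deletions and 37 in the Meis1 table. The lists include genes that are not particular to that branch, among them Acvr1, Bmpr2 and Smad6. In Δ306 against WT, 0 of 38 were higher and 7 were lower (1 without the libraries low in Y-linked transcripts), where 3.46% of all genes were lower. In Δ93 against WT, 0 were higher and 8 lower (5 without those libraries), where 6.84% of all genes were lower. The median log2 fold changes of the 38 genes were -0.54 in Δ306 and -0.39 in Δ93, beside 0.08 and 0.06 for all genes. In Δ225 and in Δ104 against WT edgeR called 0, with 6 and 5 at an unadjusted p under 0.05 and 1 each by DESeq2.

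Among ligands, Tgfb1, which encodes TGF-β1, fell in Δ306 (log2 fold change -1.23, SE 0.26, adjusted p = 0.0110) and in Δ93 (-1.13, SE 0.22, adjusted p = 0.00237), 1 of 7 ligand genes tested in each. Among receptors, 1 of 8 fell in Δ306, the type I receptor gene Acvr1 (-1.08, SE 0.20, adjusted p = 0.00540). In Δ93, Acvr1 (-0.92, SE 0.16, adjusted p = 0.00150) and Tgfbr2, the TGF-β type II receptor gene (-0.81, SE 0.23, adjusted p = 0.0213), fell, 2 of 8. Of 3 proprotein convertase genes, whose enzymes cleave TGF-β family precursors, Pcsk5 fell in both, from 195 CPM in WT to 43.1 in Δ306 and 48.6 in Δ93 (log2 fold change -2.18, SE 0.35, adjusted p = 0.00229, and -2.001, SE 0.28, adjusted p = 0.000576).

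Of 13 genes of SMADs, their partners and repressors, 4 fell in Δ306 and 3 in Δ93. In Δ306 these were Smad7, an inhibitory SMAD (log2 fold change -0.92, adjusted p = 0.0345), the co-repressor gene Ski (-0.58, adjusted p = 0.0246), the ubiquitin ligase gene Smurf1 (-0.75, adjusted p = 0.0326) and Pmepa1, a feedback inhibitor of SMAD signalling (-1.43, adjusted p = 0.0330). In Δ93 they were the co-repressor gene Tgif1 (-0.52, adjusted p = 0.0437), Smurf1 (-0.52, adjusted p = 0.0494) and Pmepa1 (-1.01, adjusted p = 0.0401). Of 3 response genes, Ccn2 fell in Δ93 (-1.204, SE 0.33, adjusted p = 0.0185) and 0 were called in Δ306 by edgeR. None of 4 extracellular inhibitor genes was called in either deletion.

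These wider lists were compared between the deletions as well. Against Δ306, where 6.47% of all genes were higher and 6.74% lower, 9 of 38 genes were higher in Δ225 and 0 lower (3 and 0 without the libraries low in Y-linked transcripts, 13 and 2 by DESeq2): Acvr1, Bmpr2, Pcsk5, Smad4, Smad7, Ski, Skil, Tgif1 and Pmepa1. Against Δ93, 14 were higher and 4 lower (8 and 1 without those libraries), where 9.96% of all genes were higher and 10.8% lower. Of the 14, 3 were ligand genes, 4 receptor or co-receptor genes and 4 genes of SMADs, their partners and repressors. The extracellular inhibitors, proprotein convertases and response genes gave 1 each. Not all are named here. Among them were Nodal, a ligand known from left-right patterning and fetal male germ cells (log2 fold change 2.15, SE 0.68, adjusted p = 0.0298), its co-receptor gene Tdgf1 (2.93, SE 0.97, adjusted p = 0.0368) and its inhibitor Lefty2 (3.12, SE 1.102, adjusted p = 0.0485). The lower ones, a share close to that of all genes, were Igsf1, Wfikkn1, Pcsk6 and Tgfbi. In Meis1 KO against WT, 1 of 37 genes was called, the type I receptor gene Tgfbr1 (0.46, SE 0.07, adjusted p = 0.0340), where 1.8% of all genes were called, so that 1 call is close to that share.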

How the data were processed

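Read counts per gene were deposited by the authors as raw counts, 1 table of WT with all 4 deletions, 1 of WT with Meis1 KO and 1 of WT with Δ306. Per the submitters' processing notes, reads were aligned with STAR (2.7.10a for WT and Δ306) to mm10, and featureCounts, Subread and DESeq2 are named for WT and Δ306. The kit was strand-specific and poly(A)-selected, per the labels' protocols, and the strand setting of the counting is not given in the sources used here.

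Counts were fitted with edgeR 4.0.16 in R 4.3.3 (filterByExpr, TMM, quasi-likelihood F-test, Benjamini-Hochberg over all genes tested), called at an adjusted p under 0.05. The 22 libraries of the all-deletions table entered 1 fit (22941 genes, residual degrees of freedom 17) for 10 comparisons. The 7 libraries of the Meis1 table entered another (16791 genes, residual degrees of freedom 5). Δ306 was taken from the table of all deletions, whose columns name it, and the separate table, whose mutant columns name only Fgf9, served as an alternative. The SE is the absolute log2 fold change from the unshrunk coefficients of the fit, divided by the square root of F. The log2 fold change printed is the one that edgeR reports. Exonic lengths and gene positions are from GENCODE M21 (GRCm38). The fitting step was tested on simulated counts. Genes named are the 10 members, Fgf9 and Meis1 as checks, called genes of 6 pathway lists and the 3 genes most like each of 4 members. Members and lists were chosen with earlier results of these data known. Alternatives were DESeq2 1.42.0, RLE or no composition scaling, no filter on low counts, an adjusted p under 0.01, the replicate number as a block, only the 2 groups compared, the separate table and each library left out. Leaving out the libraries low in Y-linked transcripts was added after seeing the data. The result of 1 marker list is not reported here.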

Additional observations from a re-analysis of the deposited data

Results flagged for a closer look

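Over the 40 sets of values tested (10 genes in the 4 groups of 4 to 6 libraries), 3 single libraries stood apart from the rest of their group by Dixon's ratio of gap to range, where chance marks about 1 in 20 groups. Fst in Δ225 was highest in replicate 3, at 14.6 CPM against 3.90 in the next library, and that library also had the highest Fgf9 of its group (16.5 CPM). Acvr2a in Δ104 was lowest in replicate 4, at 29.9 CPM against 41.9 in the next, close to the WT range. Acvr1b in Meis1 KO was highest in replicate 1, at 62.3 CPM against 54.2 in the next.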

How the results depend on the processing

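The number of the 10 genes called varied with the processing in most comparisons, and the cause was not tested. Under DESeq2 it was 1 in Δ104 against WT and 2 in Δ104 against Δ306. In Δ93 against Δ104 it was 2 and in Meis1 KO against WT 1. Each of these was 0 in edgeR. Over all genes DESeq2 called 591, 389, 546 and 1439 in these comparisons, against 14, 15, 12 and 303 by edgeR. DESeq2 called 6 of the 10 in Δ306 against WT and 7 in Δ93 against WT, where edgeR called 4 and 5. It called 6 in Δ225 against Δ306 and 7 in Δ225 against Δ93, where edgeR called 4 and 5. Over all genes these last comparisons had 2707, 4525, 4270 and 5935 calls by DESeq2, against 1474, 3229, 3030 and 4767 by edgeR. Without the filter on low counts, the number of the 10 called was 1 in Δ104 against WT (31 over all genes). In Δ93 against Δ104 it was 1 (35 over all genes). At an adjusted p under 0.01 it was 2 in Δ306 against WT (259 over all genes) and 3 in Δ93 against WT (1234). In Δ225 against Δ104 it was 0 (31). With only the 2 groups compared it was 6 in Δ306 against WT (3429) and 7 in Δ93 against WT (4162). In Δ225 against Δ104 it was then 0 (1 over all genes). The separate table gave 6 in Δ306 against WT (3101 over all genes). Without the libraries low in Y-linked transcripts it was 0 in Δ306 against WT (102 over all genes) and 3 in Δ93 against WT (1532). In Δ225 it was then 2 against Δ306 (516) and 0 against Δ104 (14). In Δ225 against Δ93 it was 4 without them (2097 over all genes). In Δ225 and Δ104 against WT, Δ104 and Δ93 against Δ306 and Δ93 against Δ104 it was 0 without them. Leaving out 1 library in turn gave 2 to 3 in Δ306 against WT (205 to 1310 over all genes). It gave 3 to 6 in Δ93 against WT (1486 to 3572) and 0 to 1 in Δ104 against WT (1 to 528). For Δ104 against Δ306 it was 0 to 2 (0 to 282) and for Δ225 against Δ104 0 to 1 (9 to 557). For Δ93 against Δ104 it was 0 to 2 (3 to 791) and for Δ225 against Δ306 3 to 5 (887 to 3368). For Δ225 against Δ93 it was 4 to 7 (3410 to 6429) and for Meis1 KO against WT 0 to 3 (15 to 2204).

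Numbers were to be taken as pairing where the deviations of every same-numbered pair correlated above 0.1. No comparison met this (correlations of -0.31 to 0.48), although every pair was positive in 3 of 11, and in none did every library correlate best with its own number. With the replicate number as a block, 1 member was called in Δ225 against WT, 1 in Δ104 against WT and 0 in Δ225 against Δ104. Over all genes the counts were 1638, 470 and 2 in the same order, against 48, 14 and 148 without the block. In Δ306 against WT 3 members were called (1292 over all genes) and in Δ93 against WT 7 (3346). In Δ225 against Δ306 it was 5 (3393) and in Δ225 against Δ93 5 (4639). In Δ104 against Δ306 it was 0 (2 over all genes) and in Δ93 against Δ306 0 (3). In Δ93 against Δ104 it was 0 (2) and in Meis1 KO against WT 0 (32). The block added Acvr2a in Δ225 (0.53, adjusted p = 0.0465) and in Δ93 (0.53, adjusted p = 0.0291) and ended the call of Inhba in Δ306 (-2.70, adjusted p = 0.0605). It reversed uncalled log2 fold changes of Inha (-0.94) and Tgfbr3 (0.037) in Δ225, Acvr2b (0.027) and Bambi (-0.059) in Δ104 and Bambi (-0.034) in Δ93.

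Other reversals were of uncalled values. Acvr2b in Δ306 was 0.043 without a composition factor and 0.034 in the separate table. Fstl3 in Δ225 was 0.053 under DESeq2, and Inha in Δ225 was -0.057 without the libraries low in Y-linked transcripts. Leaving out 1 library in turn gave ranges across 0 for Inha (-0.056 to 0.38), Tgfbr3 (-0.24 to 0.10) and Fstl3 (-0.12 to 0.18) in Δ225, Inhba (-0.51 to 0.26), Fstl3 (-0.16 to 0.30), Acvr2b (-0.15 to 0.063) and Bambi (-0.056 to 0.12) in Δ104, Acvr2b (-0.026 to 0.15) in Δ93 and Fstl3 (-0.15 to 0.20) in Meis1 KO. Without a composition factor, calls over all genes in Δ306 against WT were 975 higher and 603 lower, against 680 and 794 with it, and the median over all genes shifted from 0.08 to 0.17. In Δ225 against Δ306 they were 1027 and 1975 against 1484 and 1546, with the median moving from -0.01 to -0.11. The calls of the 10 genes in Δ306 against WT were 4 with and without the factor and 6 with RLE scaling, which added Inhbb (adjusted p = 0.0495) and Acvr1b (0.0482), and in Δ225 against Δ306 they were 4, 5 and 4.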
